A study of Mus musculus with 4 samples.

Results

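Histone H4 acetylated at lysine 16 (H4K16ac) was mapped in mouse neural progenitor cells (NPC) and in the embryonic stem cells (ESC) they came from, and 4720 stretches of 8 to 16 kb were called as enriched in NPC without a single base called in ESC. These stretches, here called the NPC-only islands of 8 to 16 kb, were taken from the 48170 NPC islands on chromosomes 1 to 19. An island is a run of neighbouring 200 bp windows enriched in reads over the background. The members were at least 8000 bp and below 16000 bp wide, had fewer than 120 reads per kb (the density), and shared no base with any of the 39508 ESC islands. The members were thus chosen by their width, their density and the absence of ESC overlap in the called lists, and these values are given as descriptions, with no test.

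NPC were 46c cells that carry a sox1-GFP reporter, differentiated for 5 days with NB27 and Neuro2 supplements and sorted on GFP by flow cytometry. ESC were undifferentiated cells of the same reporter line, so both groups carry the reporter and both rest on 1 line. Chromatin of both was cut with micrococcal nuclease and precipitated with the same lot of a Millipore H4K16ac antibody, giving 1 H4K16ac library and 1 input library per cell type. The NPC list held 24386370 island reads and the ESC list 17935144. With 1 library per cell type, no difference between NPC and ESC has a replicate check and no p-value is given. Intervals of island reads cover counting error only. Those of shares and medians over islands treat neighbouring islands as independent, and do not cover variation between cultures. Positions are on mouse build mm9. No gene annotation of that build was used here, so islands are given by position, and the cell type labels could not be set against marker genes.

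Acetylation of this lysine is placed by the acetyltransferase KAT8 (MOF), which works in the MSL and NSL complexes, and is removed by deacetylases such as SIRT1 and SIRT2. The mark neutralises a charge in the H4 tail that takes part in contacts between nucleosomes, and it is commonly found over active genes, around their starts and along their bodies, and at enhancers. Sox1, the gene that holds the reporter, encodes a transcription factor of early neural progenitors.

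NPC-only islands made up 57.1% of the NPC islands in their width and density class, or 4720 of 8265 (exact 95% interval 56.0% to 58.2%). Over NPC islands of all widths, the share without an ESC island was 65.4%. The other 3545 islands of the class shared bases with ESC islands, over a median of 82% of their length, and are called shared islands below. The share without ESC overlap was 60.7% for widths of 8 to 9 kb and 51.2% for 15 to 16 kb. In the other direction, 667 of 3934 ESC islands of the same width and density limits (17.0%, 15.8% to 18.2%) shared no base with an NPC island, while 59.2% of ESC islands of all widths shared none. The members covered 50.8 Mb, which was 16.6% of the bases in NPC islands on these chromosomes, and held 3896118 reads, or 16% of their reads.

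A typical NPC-only island of the class was 10.2 kb wide and held 785 reads, for which counting error alone is 3.57%. Its density was 75.6 reads per kb (95% interval of the median 75.3 to 76.0), with quartiles of 69.9 and 82.0 and a range of 50.9 to 118 reads per kb. Shared islands had a median of 77.7 reads per kb (77.2 to 78.0), with quartiles of 71.5 and 84.9. The medians differed by -2.02 reads per kb, NPC-only minus shared, a ratio of 0.974. This gap was small beside the spread across islands, whose SD was 9.27 reads per kb in NPC-only islands and 10.3 in shared ones, and 59.0% of NPC-only islands lay below the shared median.

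NPC-only islands had the lower median density in 8 of 8 width bins of 1 kb and on 19 of 19 chromosomes. The gap did not hold against every part of the shared islands. Among islands of 60 to 70 reads per kb, 63.3% lacked ESC overlap, against 44.5% of those of 90 to 100 and 35.8% of those of 100 to 120 reads per kb. Shared islands that lay less than 10% inside ESC islands had a median of 75.9 reads per kb (73.2 to 77.6, 105 islands), and those that lay 10% to 50% inside had 74.1 (73.5 to 74.8, 849 islands), below the members. From 50% to 90% the median was 76.5 (75.7 to 77.2, 1110 islands), and from 90% upward it was 81.4 reads per kb (80.5 to 82.0, 1481 islands).

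**Figure D1:**
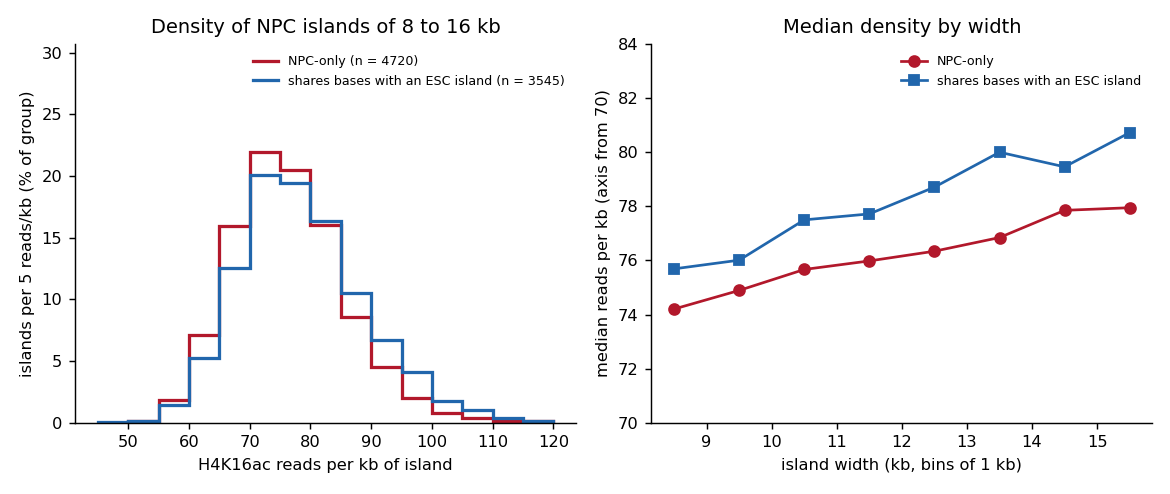
Left, the distribution of density (H4K16ac reads per kb) in NPC-only islands of 8 to 16 kb and in NPC islands of the same width and density limits that share bases with an ESC island, as the percentage of each group per bin of 5 reads per kb. Right, the median density of both groups by width in kb, on an axis that starts at 70; NPC-only medians run from 74.2 to 77.9 reads per kb and lie below the shared ones in all 8 bins.

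The lists differed in their total of island reads, the only sign of library depth in them, but one that also grows with the length called. Islands covered 306.4 Mb of chromosomes 1 to 19 in NPC and 189.8 Mb in ESC. A larger called length raises the total and so lowers the values scaled by it. Per 1000000 island reads of their own list, NPC-only islands had a median of 3.10 reads per kb, and shared islands 3.18. ESC islands of the class had a median of 4.42, a 5% quantile of 3.53 and a minimum of 2.78 on that scale. Of the NPC-only islands, 808 (17.1%) lay below this ESC minimum and 4055 (85.9%) below the 5% quantile. Among shared islands, where an ESC island was called, 13.2% lay below the minimum and 78.1% below the 5% quantile. Without that scaling, 0 NPC-only islands lay below the ESC minimum of 49.9 and 287 (6.08%) below the 5% quantile of 63.4. Reads outside called islands are not part of the lists, so the ESC signal at the members is unknown, and the part of depth in the lack of an ESC call was not tested.

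The NPC-only islands lay beside other NPC islands rather than apart from them. The median distance to the nearest NPC island was 1.6 kb (1.4 to 1.6), against 1.2 kb for shared islands. In 1227 members (26.0%), against 31.8% of shared islands, the neighbour lay 0.8 kb away, the smallest distance in the list. NPC islands covered on average 29.5% of the bases within 5 kb of a member, 42.2% of those 5 to 10 kb away and 31.6% of those 100 to 500 kb away. The first of these ranges includes the 0.8 kb next to the edge, where no other NPC island lies. NPC islands covered 12.4% of chromosomes 1 to 19 as a whole. Around shared islands the coverage was somewhat higher within 5 kb and from 5 to 10 kb, at 34.6% and 48.2%, and alike from 100 to 500 kb, at 31.9%. Density varied only loosely with that of the nearest NPC island, with a Spearman rho of 0.30 over the 4720 members, which come from 1 library and share neighbours.

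ESC islands covered less of the bases close to the members than of their wider surroundings. The share was 7.14% within 5 kb of a member, 12.0% from 5 to 10 kb, 14.8% from 20 to 50 kb and 16.4% from 100 to 500 kb, against 7.68% of chromosomes 1 to 19 as a whole. Around shared islands the order was the opposite, with 38.6%, 36.6%, 28.9% and 19.4% at these distances. The rule removed ESC islands from the members themselves, so part of the dip next to the edge follows from it. Shared islands were chosen for their overlap with ESC islands, which can run past their edges. Part of the high ESC coverage close to them thus follows from that choice, and both choices enter the comparisons over 50 kb. Over the whole flank of 50 kb on both sides, ESC islands covered 13.5% around NPC-only islands and 31.7% around shared islands, with SDs across islands of 14.6% and 20.9%. NPC-only islands of at least 16 kb had values like those of the members, at 6.80% within 5 kb and 13.6% over the 50 kb. In the same flanks NPC islands covered 38.6% around NPC-only islands and 41.8% around shared ones. At 17.8% of members the 100 kb of flank held no ESC island at all, against 1.78% of shared islands. Flanks of neighbouring islands overlap and are not independent.

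**Figure D2:**
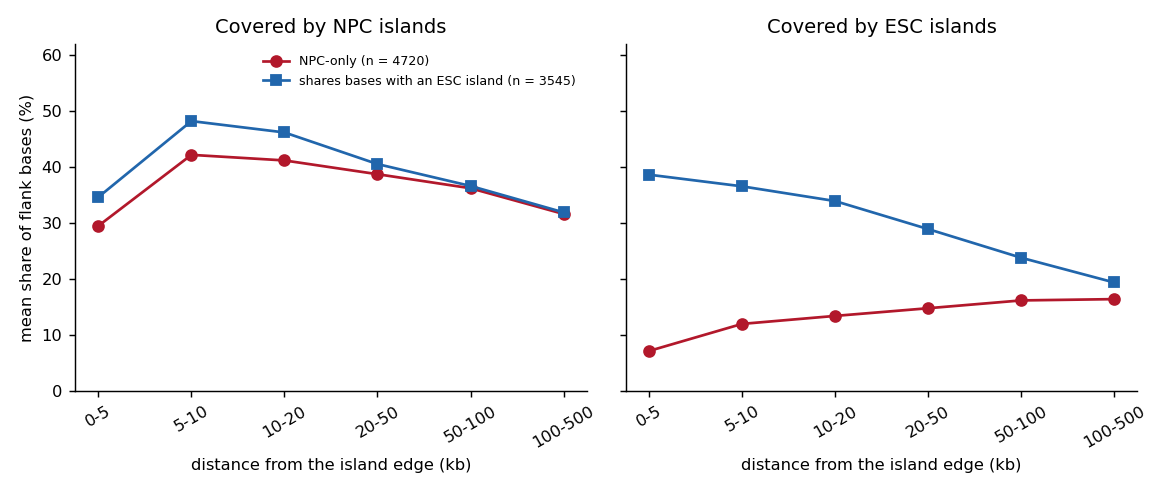
Mean percentage of bases covered by NPC islands (left) and by ESC islands (right), by distance in kb from the edges of NPC-only islands of 8 to 16 kb and of NPC islands of the class that share bases with an ESC island. NPC coverage within 5 kb is 29.5% around NPC-only islands and 34.6% around shared ones. From 5 to 10 kb it is 42.2% and 48.2%. From 100 to 500 kb it is 31.6% and 31.9%. ESC coverage within 5 kb is 7.14% around NPC-only islands and 38.6% around shared ones. Both groups were chosen by ESC overlap, which in part sets the ESC coverage next to their edges.

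The nearest NPC island of a member was itself without ESC overlap in 77.9% of cases, against 65.4% of all NPC islands and 38.6% for shared islands. This share was much the same for NPC-only islands of at least 16 kb and of 2 to 8 kb, at 79.2% and 77.7%. Both adjacent NPC islands, of any width, lacked ESC overlap at 2783 members (59.0%, 57.5% to 60.4%), and both overlapped ESC at 366 (7.75%). For shared islands these shares were 22.1% and 35.8%. Another NPC-only island of 8 to 16 kb lay within 50 kb of 2654 members (56.2%, 54.8% to 57.7%), and within 50 kb of 38.6% of shared islands. The nearest NPC island that did overlap ESC was a median of 27.8 kb away (26.0 to 29.6).

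From a member to the nearest ESC island the median distance was 14.6 kb (13.8 to 15.2), with quartiles of 4.6 and 36.65 kb. NPC-only islands of at least 16 kb and below 120 reads per kb had a median of 15.8 kb (14.2 to 17.4), and those of 2 to 8 kb had 17.6 kb (17.4 to 18.0). Of the members, 660 (14.0%) lay less than 2 kb from an ESC island and 289 (6.12%) at least 100 kb away. Density was slightly lower far from ESC islands, with a median of 77.2 reads per kb below 2 kb and 72.9 reads per kb from 100 kb upward, a difference well inside the spread of either bin. Width hardly varied, with a median of 10.2 kb in the nearest bin and 10.4 kb in the farthest.

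**Figure D3:**
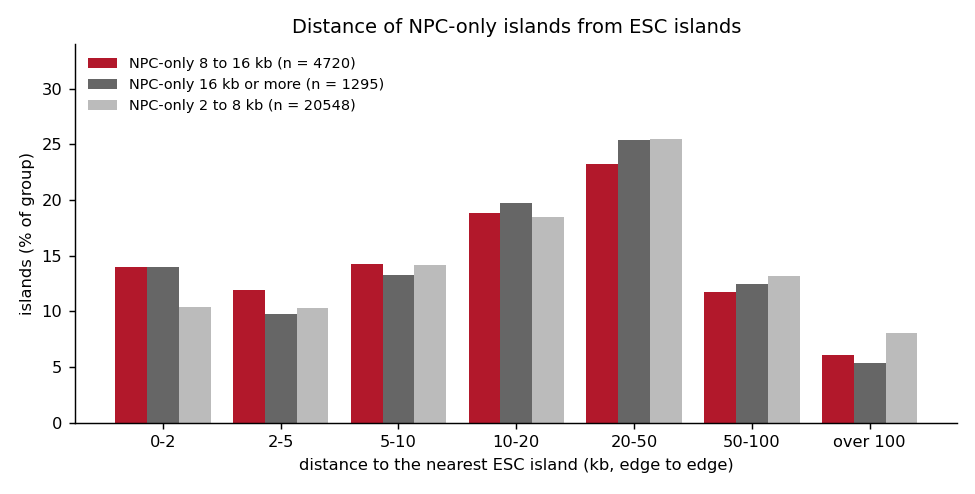
Percentage of NPC-only islands by edge-to-edge distance in kb to the nearest ESC island, for members of 8 to 16 kb, for islands of 16 kb or more and for islands of 2 to 8 kb. The members fall into every bin, with 14.0% below 2 kb and 6.12% at 100 kb or more.

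The ESC islands nearest to the members were 3508 in number, since several members can share one. Of these, 1858 (53.0%, 51.3% to 54.6%) overlapped an NPC island, against 40.8% of all ESC islands on these chromosomes. Their median width was 3.4 kb and their median density 88.5 reads per kb, against 3 kb and 92.5 reads per kb in the whole ESC list. Dense narrow ESC islands, no wider than 2 kb and with 120 or more reads per kb, were 9.04% of them and 17.5% of the list. Where the nearest ESC island lay less than 2 kb from the member, it overlapped an NPC island in 63.3% of cases, against 42.6% at 50 to 100 kb and 45% from 100 kb upward. These shares count an ESC island once for each member it is nearest to. The ESC islands also differed in median width, at 4600 bp in the nearest bin and 2600 and 2800 bp in the other bins named.

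Members were then placed in the stretches free of ESC islands, which lie between successive ESC islands or between the first or last of them and the start of the chromosome or its last NPC island. Of 39510 such stretches, 3176 (8.04%) held at least 1 member. Their median length was 64.6 kb, with quartiles of 35.6 and 123.2 kb, against 19.4 kb over all stretches, and long stretches have more room for an island. NPC islands covered 33.6% of the bases in the stretches with members, and the members alone 15.7%. In 736 of these stretches (23.2%) the member was the only NPC island counted, while in total 8894 other NPC islands were counted in them. Counts of NPC islands per stretch, here and below, leave out those that reach in across a bordering ESC island, whose bases the coverage includes. At 26354601 on chromosome 5, for example, 1 island was counted in 20.2 kb with 87.1% covered, though the member was 15.4 kb wide. A stretch was shared with another member by 2435 members (51.6%), and 75 stretches held 5 or more.

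The stretches with most members lay on chromosomes 4 and 15. On chromosome 4, positions 152369601 to 152921000 held 14 members and 34 NPC islands in 551.4 kb, with 49.9% of the bases covered in NPC. Its member densities ran from 62.2 to 92.6 reads per kb with a median of 74.7. The first 3, which began at 152397801, 152421801 and 152431801, had 69.6, 62.2 and 73.6 reads per kb. A run of 6 followed between 152621601 and 152702400 with 80.2, 78.2, 66.1, 69.2, 80.3 and 85.8 reads per kb. The other 5 began at 152741801, 152772401, 152828601, 152871001 and 152901401 and had 75.3, 74.2, 92.6, 65.2 and 79.6 reads per kb. The ESC island at the left border, 4.2 kb with 402 reads, lay fully inside NPC islands, and 2.6 of the 3 kb at the right border did.

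On chromosome 15, positions 73585401 to 74263600 also held 14 members, among 32 NPC islands, with 44.2% of 678.2 kb covered in NPC. Members there had 60.3 to 100.1 reads per kb, and the densest were neighbours, at 98.9 reads per kb from 73711001, 100.1 from 73727401 and 92.8 from 73737401. The stretch ended at an ESC island of 30.2 kb, all of which was also called in NPC. Positions 130683401 to 131039400 of chromosome 4 came next with 11 members among 27 NPC islands, and had the highest NPC coverage of the 3 at 69.0%. Its member densities were 68.5 to 88.9 reads per kb.

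**Figure D4:**
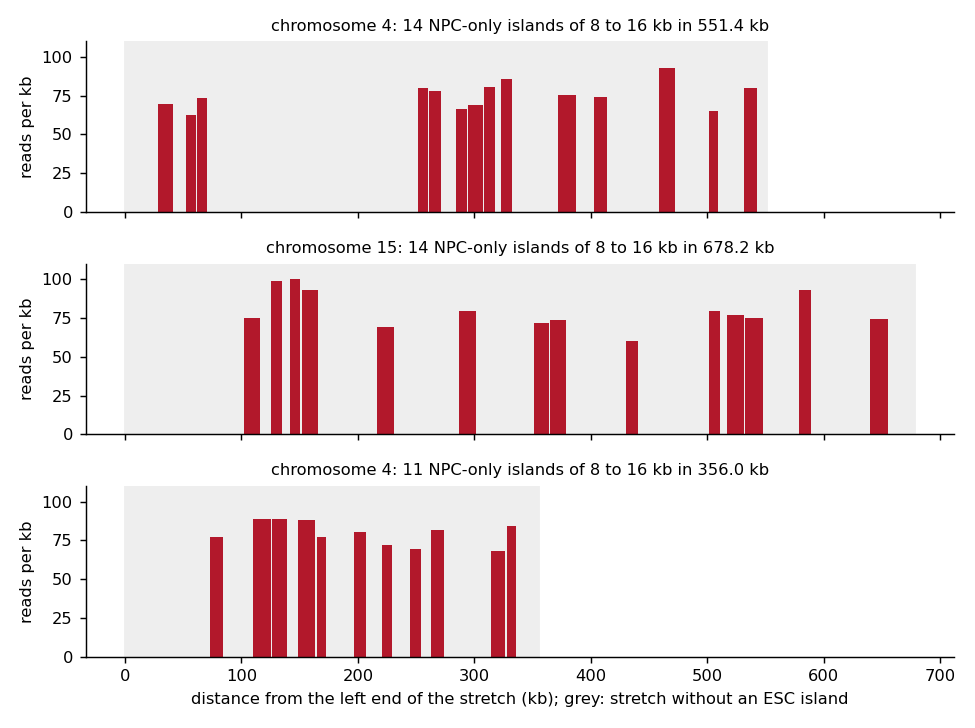
NPC-only islands of 8 to 16 kb in the 3 stretches without an ESC island that hold most of them, drawn to scale by distance in kb from the left end of each stretch, with bar height giving reads per kb and grey the extent of the stretch. The 14 members of the first stretch lie in 2 runs and later single islands, with densities of 62.2 to 92.6 reads per kb.

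At the scale of 1 Mb the members were most frequent where ESC islands, and NPC islands as a whole, were also frequent. Of 2482 windows, 1138 (45.9%) held a member. Windows with ESC coverage above 0 and below 5% held on average 0.481 members, those of 10% to 20% held 4.21 and those of 20% to 30% held 5.39. From 30% upward the mean was 4.64. Mean NPC coverage, which includes the members, rose over the same ranges, at 2.88%, 24.3%, 37.2% and 48.0%. The number of members was thus not separated from the amount of NPC islands in a window. As a share of the class, NPC-only islands were fewer where ESC coverage was higher, at 79.6% in windows below 5% (above 0) and 37.3% in those from 30% upward. The 84 windows with no ESC island held 3 members in all, at a mean NPC coverage of only 0.179%. Windows with 5 or more members, 420 in number, held 67.9% of all members.

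The 3 windows with most members differed in their ESC coverage. Positions 152000001 to 153000000 of chromosome 4 held 19 members, with 45.1% of bases covered in NPC and 0.72% in ESC. On chromosome 10, 61000001 to 62000000 held 18 members, with 51.3% and 9.86% covered in NPC and ESC. On chromosome 11, 52000001 to 53000000 held 17 members, with 52.5% and 13.0%.

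Every chromosome from 1 to 19 held NPC-only islands of the class. Their number per Mb ranged from 0.809 on chromosome 3 to 3.43 on chromosome 11, which in NPC were also the least and the most covered of these chromosomes, at 6.03% and 19.9%. The share of the class without ESC overlap ranged less, from 50% on chromosome 14 (44.3% to 55.7%) to 62.7% on chromosome 4 (58.6% to 66.6%). Chromosomes 7, 6 and 9 followed with 62.6%, 61.9% and 61.4%. Median member density ran from 71.7 reads per kb on chromosome 3 to 77.8 on chromosome 11.

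**Figure D5:**
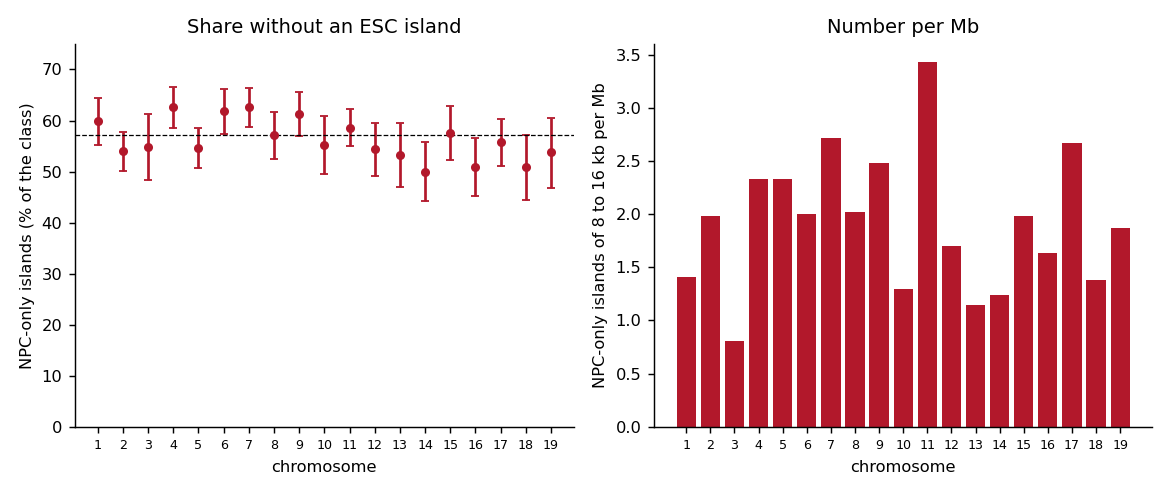
Left, the percentage of NPC islands of the class that share no base with an ESC island, by chromosome, with exact 95% intervals over islands and a dashed line at the value of all chromosomes. Right, the number of NPC-only islands of 8 to 16 kb per Mb; chromosome 11 has 3.43 and chromosome 3 has 0.809.

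The members with most reads were 13.8 to 15.8 kb wide, and 4 of 5 lay within 5 kb of an ESC island. On chromosome 11, positions 60288801 to 60302600 held 1550 reads (exact Poisson interval 1474 to 1629) at 112 reads per kb. It lay 2.2 kb from an ESC island of 19.2 kb, in a stretch whose bases were 77.8% covered in NPC. Ranked after it, the island at 3989401 to 4005200 on chromosome 14, held 1544 reads and lay 4.8 kb from an ESC island of 1.6 kb. The next, at 48445401 to 48460600 on chromosome 17, held 1538 reads and was 64 kb from the nearest ESC island. Positions 23905801 to 23921000 and 26354601 to 26370000 of chromosome 5 held 1535 and 1513 reads. The second of these lay 1.2 kb from an ESC island of 29.4 kb with 3762 reads, which was also called in NPC at nearly the same borders.

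The densest members lay in unlike surroundings. The first, on chromosome 5 at 26581801 to 26592200, held 1227 reads at 118 reads per kb (111 to 125 from counting error) and lay 113.8 kb from an ESC island. Around it only 9% of the flanking 50 kb on each side was covered in NPC. The second, at 149183801 to 149192200 on chromosome 4, had 117 reads per kb and lay 35 kb from an ESC island. By contrast, the next, at 26522001 to 26530200 on chromosome 17, had 117 reads per kb with 77.6% of its flanks covered in NPC, and an ESC island 5 kb away. The others, at 46905601 on chromosome 9 and 22095201 on chromosome 10, both had 116 reads per kb and lay 60.8 and 61.2 kb from an ESC island.

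At the low end, positions 105699401 to 105708400 of chromosome 9 held 458 reads at 50.9 reads per kb (46.3 to 55.8). It was followed by 95249201 on chromosome 16 at 51.3, 54278001 on chromosome 5 at 52.9, 122348601 on chromosome 2 at 53.3 and 5139201 on chromosome 10 at 53.4 reads per kb. Counting intervals of these 5 overlapped each other. The island on chromosome 16 stood alone, with no other NPC island within 50 kb and the nearest 75.2 kb away.

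The members farthest from any ESC island lay on chromosomes 1, 6, 9 and 5. On chromosome 1, positions 40923401 to 40932000 held 532 reads at 61.9 reads per kb, 406.2 kb from an ESC island, in a stretch of 1677 kb of which NPC islands covered 4.08%. Chromosome 6 had 2 of the 5, at 114091601 and 114218801, which were 399.8 and 360.8 kb away with 84.7 and 80.1 reads per kb. Both lay in a stretch of 900.8 kb with 54.4% NPC coverage and 11 members, a count equal to that of the last stretch named above. The others were at 117398801 on chromosome 9 (392.2 kb, 53.6 reads per kb) and at 10238201 on chromosome 5 (324 kb, 70.5 reads per kb). The surroundings of the 5 were thus unlike, with NPC coverage of their stretches from 1.27% to 54.4%.

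At the other extreme, 4 members ended exactly where an ESC island began or began where one ended. Chromosome 5 had one at 135881801 to 135890800 with 76.4 reads per kb, beside an ESC island 1.8 kb wide. Chromosome 7 had another at 29663001 to 29673200, with a density of 67.5, beside an ESC island of 38.6 kb. Those at 126267001 to 126275800 of chromosome 8 and 120780401 to 120792600 of chromosome 11 had 68.0 and 74.5 reads per kb, beside ESC islands of 5.2 and 2.8 kb. The next nearest, at 89037001 to 89049400 on chromosome 1, lay 0.2 kb from an ESC island and had 89.0 reads per kb. In all, 61 members lay within 600 bp of an ESC island, a gap that would have joined 2 islands of 1 list.

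The limits of the rule cut through a continuous range of widths. There were 273 members of 8 kb, just inside, and 274 NPC-only islands of 7.8 kb and below 120 reads per kb, just outside. At the upper limit there were 39 members of 15.8 kb and 50 islands of 16 kb. The widest members in chromosome order began at 169306001 on chromosome 1 and at 24531601 and 29087601 on chromosome 2, with 68.7, 95.6 and 76.3 reads per kb. The narrowest in that order began at 34930001, 35815401 and 38418001 on chromosome 1, with 73.6, 67.4 and 68.9 reads per kb. Just outside the width limits, islands of 7.8 kb at 34552801, 39059801 and 63120201 on chromosome 1 had 92.4, 68.5 and 71.5 reads per kb. Islands of 16 kb at 88958001 on chromosome 1 and at 120019601 and 151728401 on chromosome 2 had 76.6, 84.5 and 90.5 reads per kb.

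Few islands met the density limit, since only 7 NPC-only islands of this width had 120 reads per kb or more. The 3 densest members, named above, had 117 to 118 reads per kb. Just outside, the islands at 101050601 of chromosome 13, 71218201 of chromosome 7 and 173455001 of chromosome 1 had 120.5, 120.5 and 128 reads per kb. The 3 shared islands that missed membership by the least shared 200 bp with an ESC island. They began at 167531801 on chromosome 1 and at 104385001 and 122794401 on chromosome 4, and had 69.8, 69.4 and 89.9 reads per kb.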

How the data were processed

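Islands were called on mm9, and SICER 1.1 is the caller of such islands named in the submitters' processing notes, beside Bowtie 0.12.7, CASAVA 1.8.2, bedtools 2.10.1 and SAMtools 0.1.7. Windows of 200 bp, gaps of 600 bp and an FDR of 0.01 are taken from the list names. The deposited value per island is a whole number, read as the count of H4K16ac reads, not scaled to depth or input. Duplicate removal and the use of the input are not given in the sources used here, and input reads were not analysed here. Ends were read as last bases, which put 100% of islands on the window grid, and starts were moved by 1 to count from 1.

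The members and lists were chosen with earlier results of these data known. Flanks were clipped at the last island of a chromosome. Named islands are the 5 highest by reads, density and ESC distance, the 5 lowest by density and ESC distance, the 3 widest and narrowest, the 3 leading stretches and windows, and those beside each limit, ties going by position. In a simulated ESC list, all 500 overlaps and 500 distances given to islands of the class were recovered with 0 false overlaps. Its ESC islands were 200 bp wide and lay inside or right beside an island, while called ESC islands had a median width of 3000 bp. Wide ESC islands and long distances were thus not part of this check. The number of members equalled that of bedtools 2.31.1. Medians have order-statistic intervals, shares exact Clopper-Pearson ones and reads exact Poisson ones, all at 95%. The main interval of the density ratio divides the lower limit of each median by the upper limit of the other, and is not a 95% interval. That of ESC flank coverage comes from the standard error of the mean. Python 3.11.15, numpy 2.4.6, pandas 2.3.3, scipy 1.17.1 and matplotlib 3.10.9 were used. Results by gene start were not run, since no mm9 annotation was used here. Alternatives changed the overlap, ESC list, gap, limits, distance measure and flank.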

Additional observations from a re-analysis of the deposited data

How the results depend on the processing

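Of 51 values recomputed under 11 other settings, 17 lay within the main interval and 34 outside it. Shares and distances have no direction that could reverse, so only the density ratio could. It was recomputed under 7 of these settings and was below 1 in each. Equal list lengths, a setting chosen after seeing the data, left out the NPC islands with fewest reads. Members held at least 421 reads and none was removed, so this setting was no check on which islands are members. Without a density limit there were 4727 members in place of 4720, so that setting was little check either. All its values lay within the main interval. So did those of equal list lengths, except the distance to the nearest NPC island. The count of values within the interval is thus in part built in. No paired analysis was possible because each cell type has 1 H4K16ac library, and no library could be left out. The unknown depth of both libraries limits any reading of a missing ESC call. Flank length, the distance measure and distance from ESC islands change their values by construction. Merging gaps removes distances between NPC islands of up to 2000 bp. Leaving out ESC islands, or requiring 50% overlap, can only raise the share without overlap. A density limit of 80 and the narrower width range left 3185 and 2084 members, so fewer that could lie near each other. Causes of the other shifts were not tested.

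The share without ESC overlap was 68.7% when sharing required 50% of the length, 61.7% with ESC islands under the median reads left out, 58.9% with gaps of up to 2000 bp merged, 60.4% with a density limit of 80 reads per kb, 55.6% for widths of 10000 to below 14000 bp and 48.5% when islands within 2000 bp of an ESC island also counted as shared. The density ratio was 0.953 with the 50% rule, 0.964 with the shorter ESC list, 0.991 with merged gaps (interval 0.980 to 1.002, which includes 1) and 0.991 with the limit of 80. The median distance to an ESC island was 9.8 kb with the 50% rule, 25.2 kb with the shorter list, 16.2 kb with merged gaps, 15.4 kb with the limit of 80, 19 kb with the 2000 bp margin and 22.8 kb from centre to centre. To the nearest NPC island it was 6.6 kb with merged gaps, 2.2 kb with the limit of 80, 1.8 kb with equal lengths and 11.4 kb from centre to centre.

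The share of members with another within reach was 60.4% with the 50% rule, 41.2% with merged gaps, 40.9% with the limit of 80, 34.5% for the narrower width range, 37.4% within 20 kb and 72.6% within 100 kb. ESC coverage of the flanks was 15.1% with the 50% rule, 11.8% with the shorter list, 11.8% with merged gaps, 12.0% with the limit of 80, 13.9% for the narrower width range, 11% with the margin, 11.5% within 20 kb and 14.8% within 100 kb.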

Other observations

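Outside the chromosomes of the rule, chromosome X held 4 NPC islands of the same width and density limits, of which 2 shared no base with an ESC island, at 58.3 and 67 reads per kb. Chromosome Y held 0 islands of the class.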
